A study of Mus musculus with 6 samples.

Results

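T cells carry a set of surface proteins by which they are recognised and sorted, and 8 genes of that set were followed in RNA of sorted red pulp macrophages, the splenic cells that take up aged red blood cells. The genes were the coreceptors Cd4, Cd8a and Cd8b1 and the pan-T markers Cd5, Cd6, Cd2, Thy1 and Cd27. They were chosen by name, and all probes whose RefSeq accession led to one of these symbols were kept. All 8 genes of the 20018 named on the array had a probe, and together they had 13 probes. On at least 3 arrays 11 of these probes exceeded background clearly by the scanner's own flag (well above background), and 8 did so on all 6. An array that read a probe well above background is also said to have measured it.

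The spleens were from 3 wild-type and 3 Bach2 knock out mice, all C57BL/6 and aged 8 to 9 weeks, and 1 single-colour Cy3 array was made per mouse. All were male except wild-type replicate 3. No label describes the knockout allele, says whether the deletion was limited to a cell type, or names the surface markers used for sorting. An animal tag, P6, is shared by replicate 3 of both genotypes, and its meaning is unstated. The 3 array columns of the slide each held 1 mouse of each genotype, whereas the array rows followed the genotypes and cannot be told apart from them. Between 37.5% and 51.5% of non-control spots were well above background, and the 75th percentile of the signal lay between 865.2 and 3172.1. Bach2 read -1.09, -0.21 and -1.53 in wild type and -2.42, -3.90 and -1.41 in knockout with its brighter probe, so knockout replicate 3 overlapped wild type. The place of that probe relative to the deleted part is not known here, so it checks no label. Levels are log2 signals from which the 75th percentile of the array was subtracted, so a level of 0 lies at that percentile of the spots. Differences are knockout minus wild type on the log2 scale, with the SE from limma. With 3 mice per genotype the number of arrays limits the precision of each value.

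CD4 and CD8 bind MHC class II and class I molecules beside the T cell receptor and bring the kinase Lck to it, and CD8 is built from alpha chains alone or from an alpha and a beta chain. CD5 and CD6 are related scavenger receptor cysteine-rich proteins that tune signals of the T cell receptor, CD2 binds CD48 on other cells, Thy1 is a small glycolipid-anchored protein, and CD27 is a receptor of the tumour necrosis factor receptor family with CD70 as its ligand. None is confined to T cells. Some splenic dendritic cells carry CD4 or CD8 alpha chains, and NK cells, innate lymphoid cells or B cell subsets carry some of the others.

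Of the members, only 3 had an upstream sequence in the RefSeq promoter table of assembly GRCm38.p6, Cd8a, Cd5 and Cd27. All 3 are shown, whatever their differences. Each is the stretch of the table's upstream window that lies outside the gene body, 5′ to 3′ on the gene's strand. Cd8a lies at chr6:71373177-71373426 on the plus strand, Cd5 at chr19:10739027-10739224 on the minus strand and Cd27 at chr6:125237137-125237277 on the minus strand. Capitals mark GGAAG, the core of ETS factor sites, and the E-box CACCTG, each searched on both strands.
Cd8a: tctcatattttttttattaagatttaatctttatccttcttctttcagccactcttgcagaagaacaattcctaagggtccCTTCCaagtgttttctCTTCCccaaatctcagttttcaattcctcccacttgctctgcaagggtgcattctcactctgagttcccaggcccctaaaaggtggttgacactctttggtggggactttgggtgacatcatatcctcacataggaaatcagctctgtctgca
Cd5: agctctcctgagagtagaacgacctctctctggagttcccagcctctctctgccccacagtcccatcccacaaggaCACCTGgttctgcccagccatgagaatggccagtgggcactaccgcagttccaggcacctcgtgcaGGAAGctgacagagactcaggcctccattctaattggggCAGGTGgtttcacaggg
Cd27: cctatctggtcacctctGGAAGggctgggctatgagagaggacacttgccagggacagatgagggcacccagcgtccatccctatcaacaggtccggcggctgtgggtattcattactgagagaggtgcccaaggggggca
In the table's full 250-base upstream window, part of which lies inside the gene body for Cd5 and Cd27, Cd8a held 2 matches to GGAAG. Cd5 held 2, of which 1 is in the stretch shown, and Cd27 held 1. At least 1 was held by 64.1% of the 32851 promoters of the table. Cd5 held 2 matches to CACCTG, which 17.2% of promoters held. TGACTCA, the core that Bach and AP-1 factors share, was in none of the 3 windows and in 4.46% of all promoters. TGCTGA, the flank of Maf recognition elements, had 2 matches in the window of Cd27, both outside the stretch shown, and was in 16.1% of all promoters. TGCTGA ends in the letters TGA with which TGACTCA begins, so a full Maf recognition element can hold both. A match is a description of letters, and a missing match says only that these letters are not in this window.

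With the brightest probe of each gene, all 5 pan-T markers and 2 of 3 coreceptors had a difference above 0, none of which passed the test, and a difference between these sets was not tested. The brightest probe is that with the highest mean level, and Cd4 was the gene below 0. The dimmer probes of Cd4, Cd6 and Cd8a lay below 0 too. The median log2 difference of these 8 probes was 0.86, beside 0.09 for all 55681 probes and -0.12 for probes well above background on at least 3 arrays. Over all 13 member probes the median was 0.45, and 9 lay above 0, where 56.2% of all probes and 38.5% of the probes well above background did. The differences of the 13 probes ran from -0.62 to 1.44. At least a 2-fold higher level was reached by 4 of the 13 member probes, beside 5.15% of all probes and 3.74% of those well above background. These were Cd5, Thy1, the brighter Cd6 probe and the dimmer Cd27 probe. With normexp, with a floor on low signal and without wild-type replicate 3 the count was 2, Cd5 and Thy1. Without knockout replicate 2 it was also 2, Cd5 and the dimmer Cd27 probe, and it was 6 without wild-type replicate 1 or knockout replicate 3.

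None of these differences passed the test. By limma, 0% of all probes were called at an adjusted p under 0.05, no member was called, and the limma adjusted p was 1 for all member probes. At an unadjusted p under 0.05 there were 269 probes higher (0.483%) and 223 lower, none of them a member probe, and the smallest unadjusted limma p of a member was 0.068, for Thy1. With this spread the 95% interval of every member probe included 0. Over the alternatives the unadjusted limma p ran from 0.0045 (quantile normalization) to 0.22 for Cd5 and from 0.019 (intensity trend) to 0.29 for Thy1, with limma adjusted p of at least 0.51 and 0.47. The knockout arrays all lay above the wild-type arrays for 2 of 13 member probes, those of Cd5 and Thy1, beside 0.695% of all probes and 1.23% of those well above background. No member probe had all knockout arrays below wild type.

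**Figure D1:**
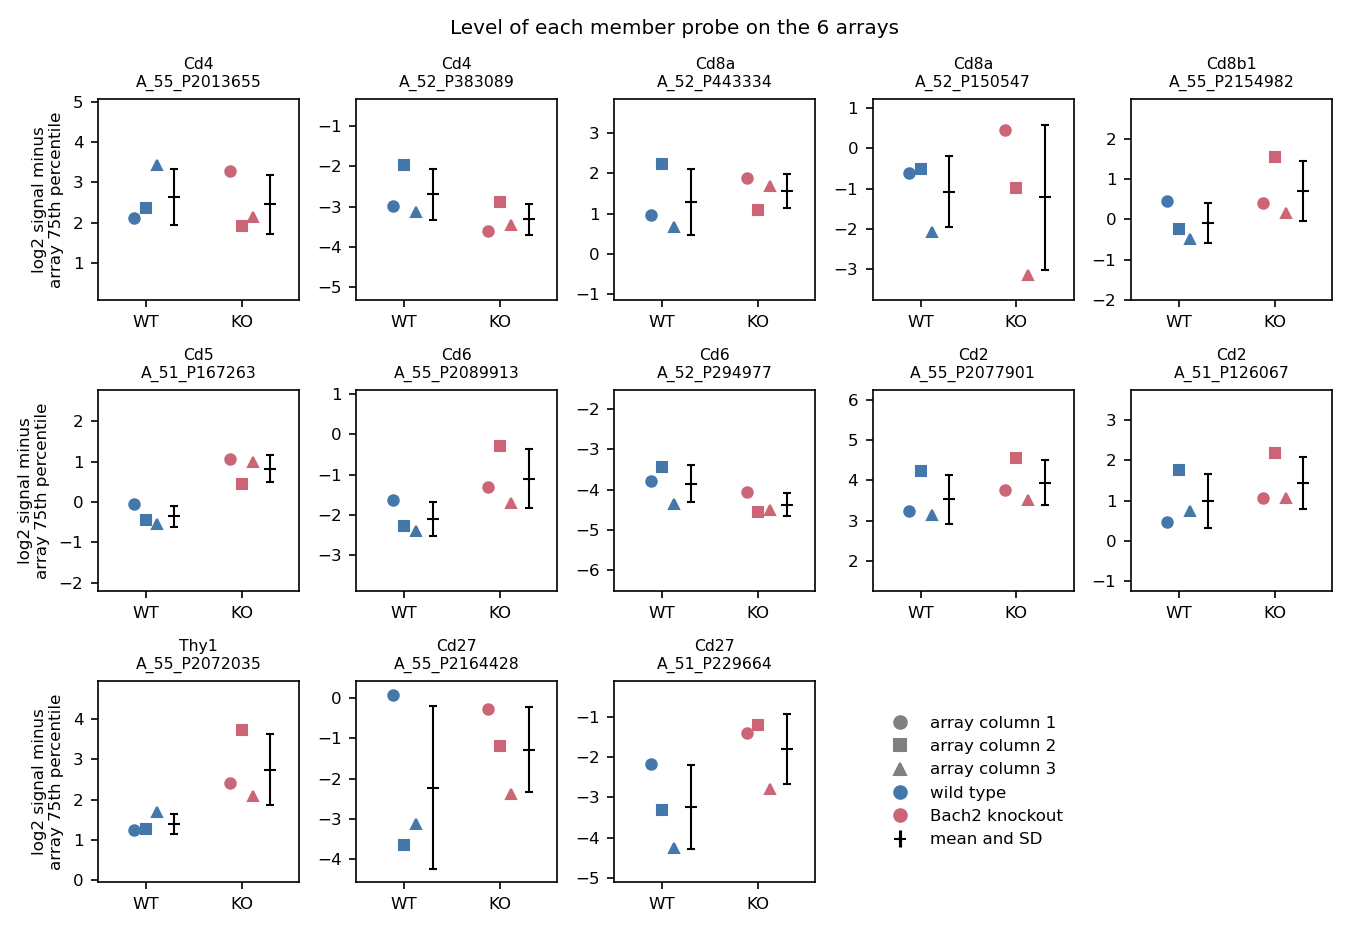
Level of each of the 13 member probes on the 6 arrays (log2 signal relative to the 75th percentile of the array), with wild type in blue, Bach2 knockout in red, a symbol for each array column and the mean and SD of 3 mice in black; each panel spans the same range of log2 units. The genotypes are apart for Cd5 and Thy1 and overlap for the other probes.

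Cd4, the coreceptor for MHC class II, had 2 probes and neither read higher in knockout. The brighter probe (A_55_P2013655) read 2.13, 2.37 and 3.43 in wild type and 3.29, 1.91 and 2.15 in knockout. The highest array of each genotype was a different replicate, wild-type 3 and knockout 1, and the genotypes overlapped. The difference was -0.19 ± 0.68 (SE), with a 95% interval from -1.69 to 1.30. It was 0.20 without wild-type replicate 3, 0.08 without knockout replicate 2, -0.61 without knockout replicate 1 and -0.04 without knockout replicate 3, so its sign rests on single mice. The other probe (A_52_P383089) was well above background on 1 of 3 arrays in each genotype and gave -0.62 ± 0.64, or -0.25 without wild-type replicate 2 and -0.40 with normexp. Its levels were -2.99, -1.96 and -3.13 in wild type and -3.60, -2.88 and -3.46 in knockout, and the wild-type array of replicate 2 stood highest.

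Cd8a encodes the alpha chain of CD8, and its probes are annotated to different RefSeq transcripts of the gene. The brighter one (A_52_P443334) read 0.97, 2.22 and 0.67 in wild type and 1.90, 1.08 and 1.68 in knockout. Wild-type replicate 2 was the highest of the 6 arrays and the genotypes overlapped, with a difference of 0.26 ± 0.67 (SE) and a 95% interval from -1.20 to 1.72. That difference was -0.05 without wild-type replicate 3, 0.73 without wild-type replicate 2, and 0.10 or 0.09 without replicate 1 of wild type or knockout. The other probe (A_52_P150547) read -0.61, -0.52 and -2.08 in wild type and 0.46, -0.98 and -3.13 in knockout, a difference of -0.15 ± 0.90. Knockout replicate 3 was the lowest array for this probe but not for the other, and the SD of its 3 knockout mice was 1.81. Its difference was 0.81 without knockout replicate 3, 0.08 without wild-type replicate 1 and 0.13 without wild-type replicate 2, whereas it was -0.99 without knockout replicate 1. The direction of both Cd8a probes thus turned with single mice.

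Cd8b1, the beta chain that marks conventional cytotoxic T cells, lies next to Cd8a with no gene between them in the RefSeq table. Its probe read 0.47, -0.23 and -0.48 in wild type and 0.41, 1.56 and 0.15 in knockout. Knockout replicate 2 stood highest, and the other knockout mice lay within or near the wild-type range. The difference was 0.79 ± 0.66 (SE), with a 95% interval from -0.66 to 2.24, and it stayed above 0 when any 1 mouse was left out. It was lowest without knockout replicate 2, at 0.37.

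Cd5 varied little within each genotype. Its probe stood at -0.05, -0.45 and -0.55 in wild type and 1.07, 0.44 and 0.98 in knockout, so the lowest knockout array lay 0.49 above the highest wild-type array. The means were -0.35 ± 0.26 (SD, n = 3) and 0.83 ± 0.34 (SD, n = 3). The difference was 1.18 ± 0.61 (SE), a 2.26-fold higher level, with a 95% interval from -0.15 to 2.51. When any 1 mouse was left out it stayed between 1.06 and 1.37. Cd5 was 1 of 2 members that the authors' deposited table lists, where its values were -0.24, -0.59 and -0.74 in wild type and 0.88, 0.24 and 0.84 in knockout.

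Cd6 lies beside Cd5 with 1 gene between them, which is not protein coding. Its brighter probe (A_55_P2089913) read -1.62, -2.28 and -2.39 in wild type and -1.30, -0.28 and -1.71 in knockout. Of the knockout arrays only replicate 3 lay inside the wild-type range, by 0.092, and wild-type replicate 3 was not well above background. The difference was 1.001 ± 0.66 (SE), a 2.002-fold higher level that rests on 2 of 3 measured wild-type arrays, with a 95% interval from -0.44 to 2.44. Without knockout replicate 2 it was 0.59. The other probe (A_52_P294977) was well above background on 1 of 6 arrays, wild-type replicate 2, and on no knockout array, so no fold is given for it. It read -3.78, -3.43 and -4.35 in wild type and -4.05, -4.56 and -4.51 in knockout.

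Cd2, an adhesion receptor of T and NK cells, gave like differences with both probes, although their levels lay apart. The brighter one (A_55_P2077901) read 3.23, 4.22 and 3.14 in wild type and 3.77, 4.56 and 3.50 in knockout. The array of replicate 2 was the highest in each genotype, and the genotypes overlapped. The difference was 0.41 ± 0.65 (SE), and the other probe (A_51_P126067), at 0.47, 1.75 and 0.75 against 1.08, 2.19 and 1.07, gave 0.45 ± 0.67. The 95% interval of the first ran from -1.02 to 1.84, a range that holds the value of Cd5. Without knockout replicate 2 the differences were 0.10 and 0.08, without wild-type replicate 2 they were 0.76 and 0.84, and without wild-type replicate 1 they were 0.26 and 0.19. Without wild-type replicate 3 the brighter probe gave 0.22, and without knockout replicate 3 it gave 0.63.

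Thy1, the glycoprotein CD90, had the smallest unadjusted p of the members. Its probe read 1.25, 1.27 and 1.69 in wild type and 2.41, 3.74 and 2.10 in knockout. All knockout arrays lay above all wild-type arrays, by 0.41 at the closest, and knockout replicate 2 stood well above the other knockout mice. The means were 1.40 ± 0.25 (SD, n = 3) and 2.75 ± 0.87 (SD, n = 3), a difference of 1.34 ± 0.67 (SE) or 2.54-fold, with a 95% interval from -0.11 to 2.80. Without knockout replicate 2 the difference was 0.85. In the authors' deposited table Thy1 stood at -0.66, -0.60 and -0.23 in wild type and 0.48, 1.81 and 0.23 in knockout.

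Cd27, a costimulatory receptor of T, NK and B cells, varied most between mice. The brighter probe (A_55_P2164428) read 0.09, -3.63 and -3.11 in wild type and -0.27, -1.19 and -2.38 in knockout. Wild-type replicate 1 was the highest of all 6 arrays while the other wild-type mice were the lowest, which gave an SD of 2.01 in wild type. The difference was 0.94 ± 0.97 (SE), 2.09 without wild-type replicate 1, 0.23 without wild-type replicate 2, 0.49 without wild-type replicate 3, 0.44 without knockout replicate 1, 1.49 without knockout replicate 3 and 0.59 with normexp. The other probe (A_51_P229664) read -2.18, -3.31 and -4.26 in wild type and -1.41, -1.20 and -2.80 in knockout, a difference of 1.44 ± 0.75. It was the largest of the member probes, but 0.81 with a floor on low signal and 0.72 with normexp, where Thy1 gave 1.34 in both. Of the knockout arrays only replicate 3 lay inside the wild-type range, and without wild-type replicate 3 this difference was 0.94. On both probes wild-type replicate 3 was not well above background.

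**Figure D2:**
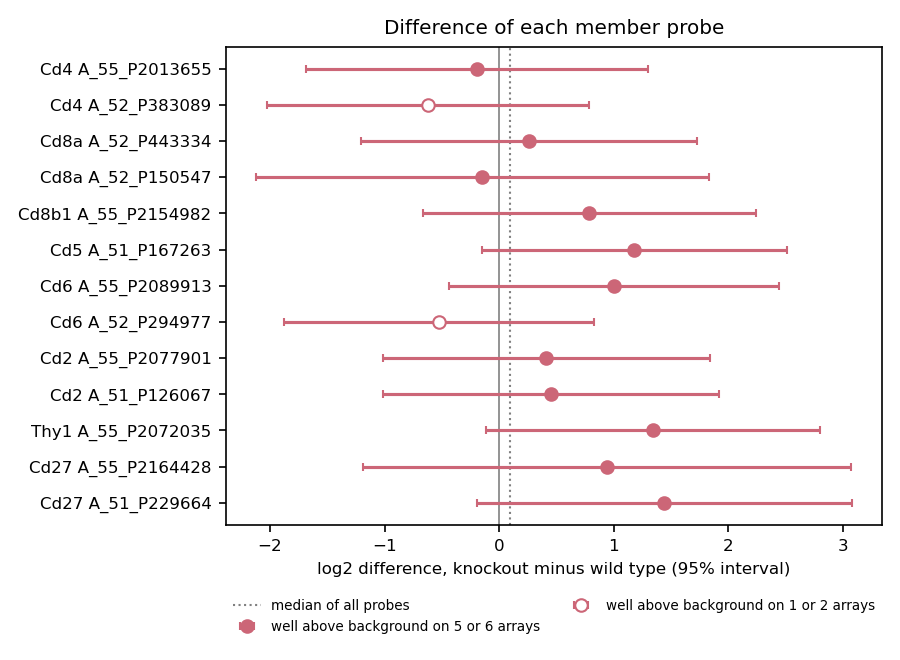
Log2 difference of each member probe, knockout minus wild type, with the 95% interval from limma; open circles are probes well above background on 1 or 2 arrays, and the dotted line is the median of all probes, 0.09. Every interval includes 0, and the points run from -0.62 for the dimmer Cd4 probe to 1.44 for a Cd27 probe.

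Within array columns, each with 1 mouse of each genotype, the brightest probes of 4 members kept 1 sign. The wild-type mouse of column 3 was the only female, so that column also differs in sex. Cd5 differed by 1.12, 0.89 and 1.53 in columns 1, 2 and 3, Thy1 by 1.15, 2.47 and 0.41, the brighter Cd6 probe by 0.32, 2.01 and 0.68, and the brighter Cd2 probe by 0.54, 0.34 and 0.37. These 4 probes read above 0 in each column, as did the dimmer Cd2 probe, at 0.61, 0.43 and 0.32. The dimmer Cd27 probe did so too, at 0.77, 2.11 and 1.46. The dimmer Cd6 and Cd4 probes read below 0 in each, at -0.27, -1.14 and -0.17 and at -0.61, -0.92 and -0.34. No share of all probes is given beside this. Cd8b1 gave -0.05, 1.79 and 0.64 and the brighter Cd27 probe -0.36, 2.44 and 0.74, lower in column 1 only. Cd8a gave 0.92, -1.14 and 1.003 and Cd4 gave 1.17, -0.46 and -1.28 with their brighter probes. Cd8b1, Cd6, Thy1 and Cd27 had their largest difference in column 2. The median of all probes well above background on at least 3 arrays was -0.13, -0.10 and -0.03 within the columns. Over every probe, dim ones included, the median was 0.35, 0.86 and -1.15. With array column as a block, the smallest unadjusted limma p of a member was 0.057, for the dimmer Cd27 probe, and no probe was called.

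**Figure D3:**
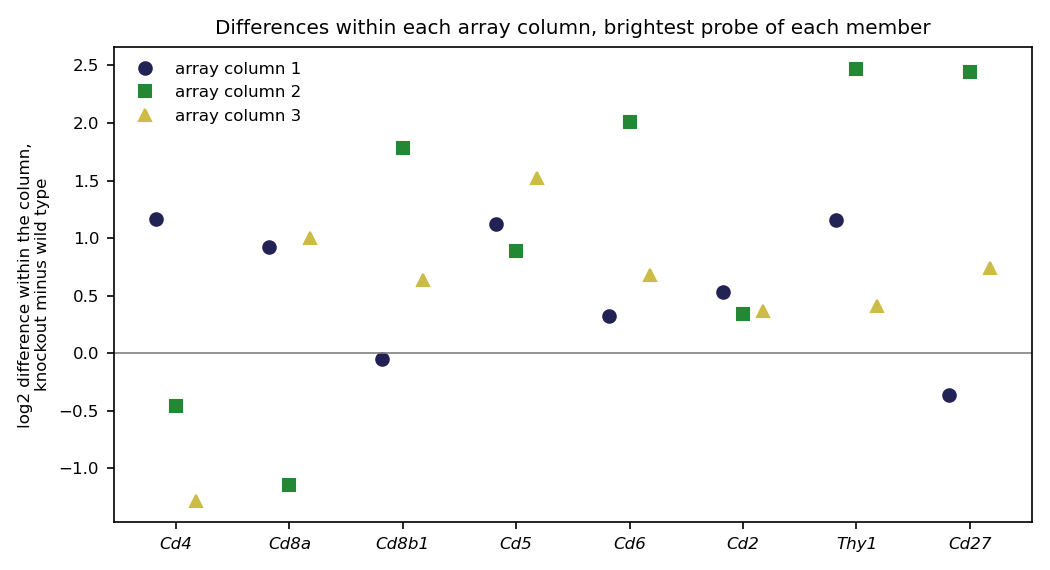
Log2 difference within each array column, knockout minus wild type, for the brightest probe of each member; each point compares 1 knockout with 1 wild-type mouse, and the symbol gives the column. Cd5, Cd6, Cd2 and Thy1 lie above 0 in all 3 columns, whereas Cd4 and Cd8a lie on both sides. The wild-type mouse of column 3 was the only female.

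The array held 10 spots of 1 probe for each of Cd4, Cd8a and Cd2, which gives the error within an array. For Cd2 (A_51_P126067) the SD over its spots was 0.036 to 0.11 within an array, while the mice differed with an SD of 0.68 in wild type and 0.64 in knockout. For Cd8a (A_52_P443334) the spots of an array had an SD of 0.056 to 0.11 and the mice an SD of 0.82 and 0.42. The spread between arrays also holds labelling and hybridisation error, which repeat spots of 1 array do not show. For the dim Cd4 probe (A_52_P383089) single spots had an SD of 0.15 to 0.58, wider than for the other probes. The mice had an SD of 0.64 and 0.38. The SD between mice is taken on means of 9 or 10 spots, which vary less than single spots, so the 2 are not directly comparable. Most members have 1 spot per array and no such check.

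**Figure D4:**
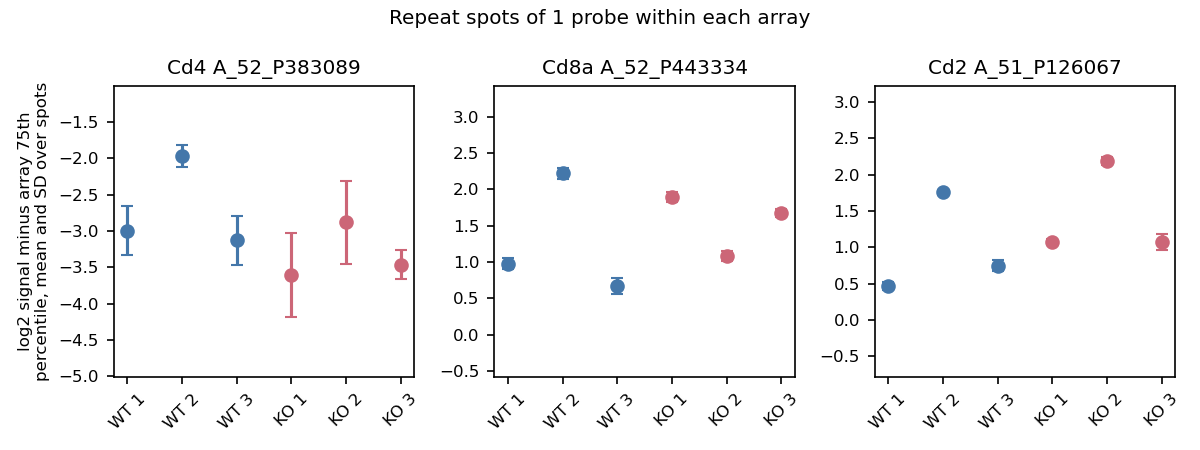
Mean and SD over the repeat spots of 1 probe within each array (log2 signal relative to the 75th percentile of the array) for Cd4, Cd8a and Cd2; wild-type arrays are blue and knockout arrays red, and the panels span the same range. The error bars are smaller than the distance between most arrays for Cd8a and Cd2 and wide for Cd4.

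Genes of the T cell receptor complex and of the kinases beside it mostly read above 0. Of 17 listed genes with a probe, 15 lay above 0 and none was called, with a median difference of 0.91. Zap70, the kinase recruited to the receptor, read 1.52 ± 0.64 and Lck 1.41 ± 0.64 (SE). Cd247, Ubash3a and Ctla4 of that list exceeded background on no array. Of the members' ligands and cytoplasmic partners, 4 of 18 lay above 0, with none called and a median of -0.19. In that list Alcam, the ligand of CD6, gave 0.71 ± 0.73 and B2m, the light chain of MHC class I, -0.54 ± 0.66. Cd70, the ligand of CD27, exceeded background on no array. Cd48, the ligand of CD2, gave 0.02 ± 0.62, and is named after its values were seen.

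Transcription factors of the CD4 and CD8 lineages had 8 of 11 genes above 0, none called and a median of 0.33. Gata3 gave 2.12 ± 0.82, a value that rests on 1 measured wild-type array, and Myb gave 0.86 ± 0.75. Zbtb7b, which directs the CD4 lineage, gave -0.16 ± 0.62 and Runx3, which directs the CD8 lineage, 0.36 ± 0.71, both named after their values were seen. Of the naive T cell list 7 of 9 genes lay above 0 with a median of 0.58 and none called. Dapl1 in it stood at -0.79 in wild type and -5.29 in knockout, where no array measured it, so its level in knockout was lower by at least 4.68-fold, with a limma adjusted p of 1. Of the effector and memory list 13 of 15 genes lay above 0 with a median of 0.98 and none called, with the chemokine receptor Cxcr6 at 2.53 ± 0.63 and the granzyme gene Gzmb at 3.19 ± 0.80. Of the regulatory T cell list 5 of 6 genes lay above 0 with a median of 0.79 and none called. Only 3 of them were measured on at least 3 arrays, Ikzf2, Tnfrsf18 and Tnfrsf4, at 1.01, 0.12 and 0.57. Ctla4 was measured on no array. Foxp3, the gene below 0, gave -0.04 ± 0.66 and was measured on 1 array. Foxp3 and those 3 genes are named after their values were seen. Il2ra, a chain of the interleukin-2 receptor, stood at -4.94 in wild type, where no array measured it, and at -2.34 in knockout, where 2 of 3 did. The bound for Il2ra was 1.97-fold higher in knockout, but it took in the knockout array that did not measure it, so it is not a firm lower limit. Such a bound sets the brighter genotype against, per array, the dimmer probe's own level or the lowest spot that exceeded background, whichever was higher.

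Markers of the cells that could carry these proteins are given here beside the members, and their part in the results was not tested. The T cell markers Cd3d, Cd3e and Cd3g were well above background on all 6 arrays, wild type included, and Cd247 on none. All 8 T cell markers lay above 0 with a median of 0.94 and none called, but only 5 were well above background on at least 3 arrays. Trat1 was so on 2 arrays. Lat and Themis had the smallest p, with Lat at 1.24 ± 0.70 and Themis measured on 1 of 6 arrays. Their summed level, in multiples of the array's 75th percentile, was 11.3, 22.7 and 6.90 in wild type and 18.9, 53.7 and 11.1 in knockout. Such a sum follows its brightest genes. Cd3e gave 0.22 ± 0.67, and most of this sum on every array came from Cd3d and Cd3g. Knockout replicate 2, the highest here, was also the highest array for Thy1, Cd8b1, Cd2, the brighter Cd6 probe and the dimmer Cd27 probe, but not for Cd5, Cd4 or Cd8a. In bulk RNA of sorted cells, a different number of cells of a type and a different amount of RNA per cell cannot be told apart.

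NK cell markers had 8 of 9 genes above 0 with a median of 1.07, with Klre1 at 1.43 ± 0.70 and Klrb1c at 1.45 ± 0.72. Their summed level was 176 to 303 in wild type and 148 to 264 in knockout, but Tyrobp, which macrophages also express, made up 81.6% to 97.1% of it. Without Tyrobp the other 8 genes summed to 8.66 to 17.1 in wild type and 12.4 to 27.2 in knockout, a sum added after the data were seen. Innate lymphoid cell markers had 3 of 7 above 0 with a median of -0.06 and Il1rl1 at 1.98 ± 1.04. They summed to 20.3 to 47.3 in wild type and 17.4 to 55.2 in knockout. Id2, named after its values were seen, made up most of that sum on every array and gave -0.06 ± 0.71. Arg1 of that list exceeded background on no array. Dendritic cell markers had 5 of 10 above 0 with a median of -0.01, Xcr1 at 0.72 ± 0.78 and Siglech at -0.48 ± 0.62, and summed to 169 to 247 against 142 to 199. B cell markers had 7 of 10 above 0 with a median of 0.06, Cr2 at -1.26 ± 0.65 and Fcer2a at 0.80 ± 0.77, and summed to 76.7 to 165 against 110 to 152.

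Red pulp macrophage markers, all well above background on at least 4 arrays, had 0 of 10 genes above 0 with a median of -0.52, and none called. Cd163 gave -1.30 ± 0.78 and Slc40a1 -0.74 ± 0.62, and the summed level was 855 to 1838 in wild type and 761 to 866 in knockout. Of the other lists, neutrophil markers had 6 of 7 genes above 0 and a median of 1.15, with Ltf at 1.64 ± 0.76 and Ngp at 1.35 ± 0.69, and summed to 52.2 to 235 against 88.4 to 374. Plasma cell markers had 4 of 6 above 0 and a median of 0.24, with Tnfrsf17 at 0.83 ± 0.88 and Sdc1 at 0.64 ± 0.68, and summed to 182 to 235 against 149 to 283. Monocyte markers had 2 of 5 above 0 and a median of -0.13, with S100a4 at -0.54 ± 0.72. They summed to 61.4 to 204 in wild type and 51.0 to 130 in knockout, and S100a4 made up most of that sum on every array. Erythroid markers had 5 of 7 above 0 and a median of 0.54, with Hbb-bt at -0.49 ± 0.69 and Slc4a1 at 0.54 ± 0.88, and summed to 434 to 938 against 260 to 935. Platelet markers had 0 of 6 above 0 and a median of -1.23, with Treml1 at -1.77 ± 1.03, Gp1ba measured on no knockout array and Itga2b on none, and summed to 5.60 to 65.9 against 4.54 to 23.4. No gene of any marker list was called.

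**Figure D5:**
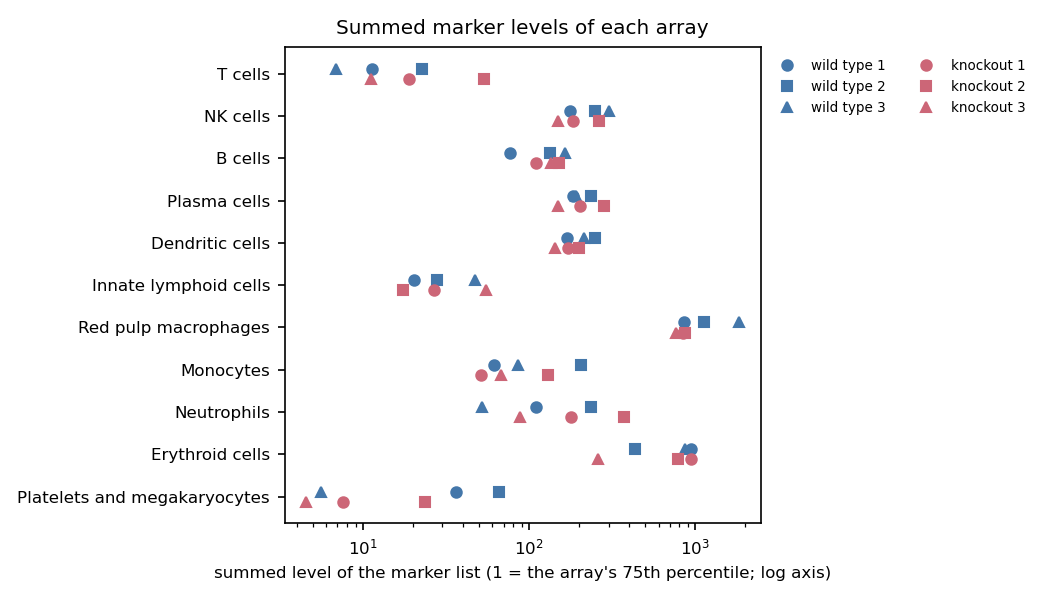
Summed level of each marker list on the 6 arrays in multiples of the array's 75th percentile, on a log axis, with wild type in blue and knockout in red and a symbol for each replicate. T cell markers run from 6.90 to 22.7 in wild type and from 11.1 to 53.7 in knockout, and overlap between the genotypes.

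The mean centred level of the 8 members' brightest probes was -0.07, -0.44 and -0.57 in wild type and 0.54, 0.60 and -0.06 in knockout, and knockout replicate 3 lay just above wild-type replicate 1. Of 11738 other named genes measured on at least 3 arrays, those whose levels followed this mean most closely over the 6 arrays were Nrgn (Pearson r = 0.98), Art2b (0.96), Krt86 (0.96), Ccl17 (0.95) and Atp4a (0.95). They were picked as the highest of many correlations over 6 arrays that share a slide and a scaling. The mean they were matched to is itself higher in knockout, so that their differences lie above 0 was largely set by the pick. Art2b, a surface ADP-ribosyltransferase of T cells, differed by 1.40 ± 0.69 and Ccl17, a chemokine, by 1.16 ± 0.64 (SE). Nrgn, neurogranin, differed by 0.46 ± 0.61, less than its SE. Krt86, a keratin, differed by 1.34 ± 0.76 and Atp4a, a proton pump subunit, by 0.84 ± 0.65.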

How the data were processed

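RNA of 6 mice was read on 1-colour Agilent arrays, and the series' design text calls the mice independent. Per the file headers, the authors' spot intensity values come from Agilent Feature Extraction 10.7.3.1 (9.1 per the submitters' processing notes) after background subtraction and detrending, and their percentiles differ between arrays. A deposited table of the authors holds log2 values of 279 probes, centred per probe, and 2 are member probes. Outlier spots (141 to 283 an array) were dropped, signals were scaled to the array's 75th percentile over the remaining non-control spots and taken to log2, and spots of a probe were averaged. Taken over probes, that percentile is 0.18 to 0.25 lower on the log2 scale, which would raise every level of an array by that amount. A probe counted as well above background when at least 0.5 of its spots did. A RefSeq table of GRCm38 named 26413 of 55681 probes by accession. The array design uses an older assembly, so that table gave names and neighbours only. Every probe entered lmFit and eBayes of limma 3.58.1 (R 4.3.3), with Benjamini-Hochberg adjustment over all probes at a threshold of 0.05. A probe missing on an array was fitted on the others, which touched no member. On simulated arrays the fit returned the differences put in, but it called none of those as small as the members', so a missing call says little about them. That simulation was revised after its results were seen. All members and, from each list, the 2 genes with the smallest p were named, by the brightest probe, and the 5 genes with the highest correlation with the members. Of the genes this names, 2 are not reported here. Members and lists were chosen with earlier results of these data known. Replicates were numbered in the order of the records. The alternatives were other filters, scalings, background corrections and spread estimates, the array column as a block, and fits without single mice.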

Additional observations from a re-analysis of the deposited data

How the results depend on the processing

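No member probe passed the limma threshold under any alternative, and the smallest adjusted p was 0.47. The differences of Cd5, Thy1, Cd8b1, Cd2, Cd6, Cd27 and the dimmer Cd4 probe kept their sign wherever a value was given. Filters on dim probes left out the dimmer Cd4 and Cd6 probes. The scalings turned no member's sign, although the median of all probes, 0.09, was 0.22 with median centring. The members' median against all probes was 0.77. It was 0.43 with a floor on low signal, 0.46 without both P6-tagged mice, and 0.31 to 1.06 leaving out each mouse. The lowest of these came without wild-type replicate 3, the only female. Members above 0 numbered 8 of 8 without knockout replicate 2 and 7 otherwise. Probes called numbered 2 with normexp and 3 with an intensity trend, against 0, none of them a member. Normexp was run on the median spot signal, a choice made after seeing the data. On the mean signal it was not run. Probes at an unadjusted p under 0.05 numbered 492, and 235 to 1454 in the alternatives. Signs turned as follows, and the cause was not tested. Without both P6-tagged mice the brighter Cd4 probe gave 0.35, the brighter Cd8a probe -0.11 and the other Cd8a probe 0.31. Leaving out each mouse, the brighter Cd4 probe ran from -0.61 to 0.20 (0.08 without knockout replicate 2), the brighter Cd8a probe from -0.048 to 0.73, and the other Cd8a probe from -0.99 to 0.81 (0.083 and 0.13 without wild-type replicates 1 and 2). Array column as a block changed no call.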
